A study of Homo sapiens with 6 samples.

Results

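The genes examined were 37 that encode the enzymes which build, sulfate and trim glycosaminoglycans, chosen by symbol from a fixed list out of 58051 genes in the expression table. All 37 were present. They comprised 5 genes of the linker tetrasaccharide, 16 of the heparan sulfate branch (5 for the chain, 8 for its modification, 3 for its editing outside the cell), 14 of the chondroitin and dermatan sulfate branch (6 for the chain, 8 for its modification) and 2 hyaluronan synthases. The RNA came from the human breast cancer cell line MDA-MB-231 (wild-type genotype), stained with FITC-labelled recombinant human FABP4, a fatty acid carrier, and sorted by flow cytometry. Cells that bound FABP4 and cells that did not gave 3 libraries each, made from total RNA after ribosomal RNA depletion. Both groups had passed through staining and sorting; where the gates were set is not known here. Separate cultures are not named in the labels, so every p-value reflects spread among these libraries alone, and that spread may be technical.

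Glycosaminoglycans are long sugar chains that cells attach to core proteins such as syndecans and glypicans or, for hyaluronan, release as free chains. Xylosyltransferases start the linker on a serine, and galactose and glucuronic acid are then added. The next sugar commits the chain: N-acetylglucosamine leads to heparan sulfate and N-acetylgalactosamine to chondroitin sulfate. Sulfotransferases and epimerases then place the charged groups through which proteoglycans hold growth factors, lipoproteins and matrix proteins at the tumour cell surface.

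Values were TPM, transcript abundances scaled for length and for the library's total, and 15300 to 15945 genes per library reached 1 TPM. TPM keep no depth, so the depth behind each value is unknown. Of 5 genes that this mesenchymal-like line is known to express strongly, CD44, EGFR, CAV1 and AXL were higher in binding libraries by limma (log2 changes 0.59, 1.15, 0.95 and 0.98), and VIM, at 821 to 981 TPM, did not pass. Their sum was 1201 to 1224 TPM in the non-binding libraries and 1588 to 1882 TPM in the binding ones. Of 5 genes known to be low in the line, ESR1, the oestrogen receptor gene, was listed at 0 in all 6 libraries, and CDH1 was the 1 of 3 tested that was lower in binding libraries. Markers of another cell type were present: the 12 epidermal keratinocyte markers were all detected and summed to between 3742 and 5282 TPM in the non-binding and between 1639 and 2935 TPM in the binding libraries. By limma with Benjamini-Hochberg adjustment, 8 of the 12 were lower in binding libraries and none was higher. Binding replicate 1 had the lowest epidermal sum, and it was the highest of the binding libraries in 82.8% of the 3047 genes called higher and in 10 of the 11 enzyme genes called higher. The part of these marker differences in the enzyme results was not tested. In such bulk samples a change in the share of cells of a type cannot be told apart from a change in RNA per cell. Across the 6 libraries 5 leukocyte markers summed to 18.59 to 35.05 TPM and 5 fibroblast markers to 26.01 to 61.18 TPM. The sum of 4 endothelial markers was 1.226 to 3.753 TPM. Of those tested in these 3 lists only PDGFRB was called, higher in binding libraries (log2 change 0.84, limma adjusted p = 0.0490). Of the 4 adipocyte markers, ADIPOQ and LEP were listed at 0 in every library, PLIN1 lay between 0.151 and 0.471 TPM, and CIDEC was above 0 only in non-binding replicate 1 (1.245 TPM).

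In the FABP4-binding cells 3 of the 4 tested linker genes, the heparan chain genes EXT2 and EXTL2, and 6 chondroitin and dermatan genes rose. Of the 7 listed heparan sulfotransferases 4 were tested and none passed, where 19.6% of all tested genes were called higher. Of the 37 genes, 30 reached at least 1 TPM in at least 3 libraries and were tested. With limma on log2(TPM + 1), fitted on 15574 genes with Benjamini-Hochberg adjustment at 0.05, 11 of the 30 were higher in binding libraries and none was lower. Over all tested genes 19.6% were called higher and 7.12% lower, and among protein-coding genes 23.4% and 4.5%. By branch, 3 of 4 linker genes, 2 of 11 heparan genes, 6 of 13 chondroitin and dermatan genes and neither hyaluronan synthase were called. The heparan share was near the 19.6% of all tested genes. The median log2 change was 0.69 in the linker, 0.21 in the heparan branch and 0.66 in the chondroitin branch. It was 0.36 over all tested genes and 0.43 over the protein-coding ones. The 3 binding libraries lay above the 3 non-binding libraries in 17 of the 30 genes, where 38.6% of all tested genes did so. These counts describe the branches, and the difference between branches was not tested.

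The 11 calls depended on scaling and on single libraries. After each library was moved to the same median (called the common median here), 3 genes were called higher (6.18% of all genes), and with quantile normalization 3 (7.69%). The genes called under the common median were EXTL2, CHPF and CHST11. Over all genes 3047 were called higher and 1109 lower on the deposited scale, against 962 higher and 1890 lower with the common median. Leaving out non-binding replicate 1, 2 or 3 left 5, 0 and 0 calls. Of all tested genes 1427, 280 and 58 were then called higher, against 3047 with every library. Leaving out binding replicate 1, 2 or 3 left 8, 7 and 6, where 1975, 1955 and 1555 of all tested genes were called higher. All 11 genes stayed higher in binding libraries under every one of the 14 alternatives.

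**Figure D1:**
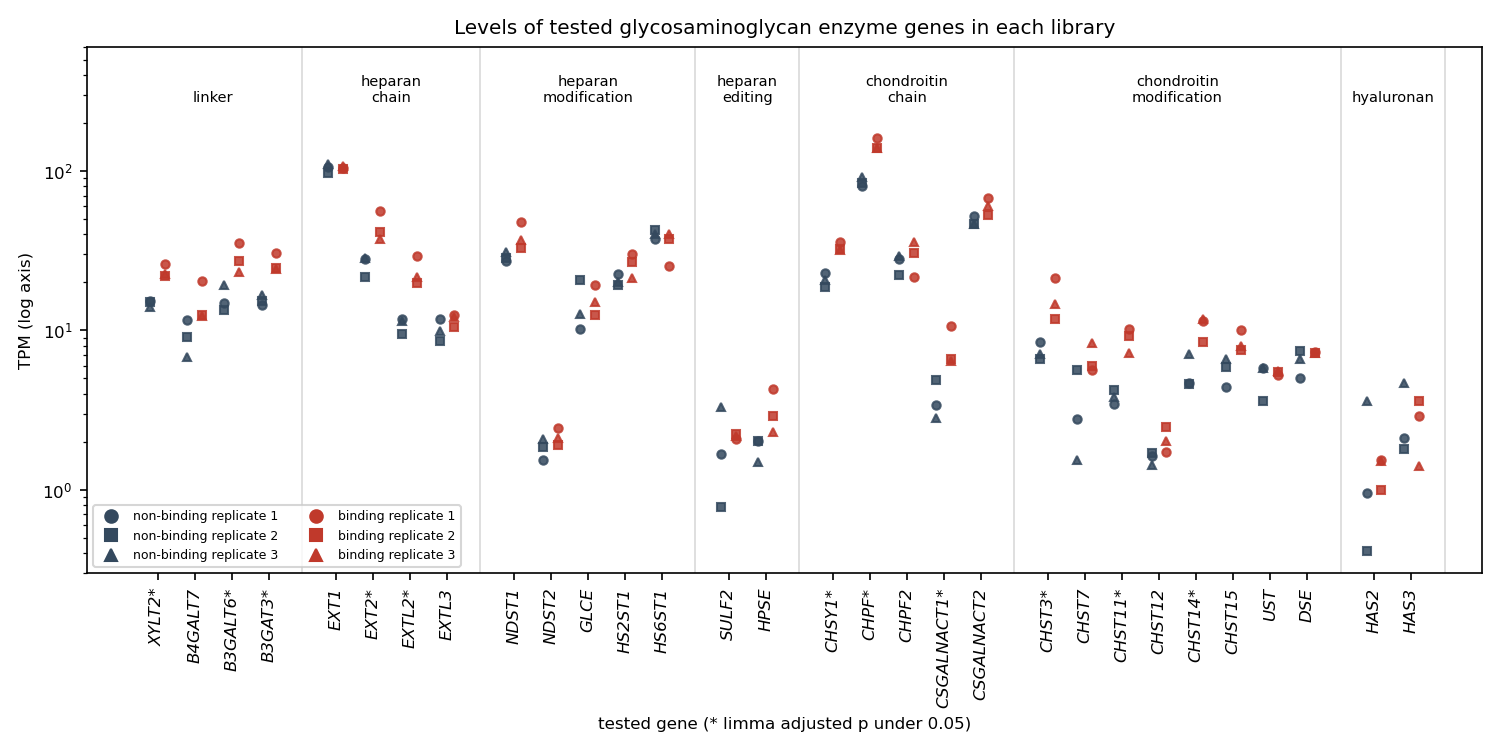
Each point is the TPM (log axis) of a tested gene in 1 library, with non-binding libraries in blue, binding libraries in red and genes grouped by role. The 11 genes with an asterisk passed limma at an adjusted p of 0.05. EXT1 and CHPF are the most abundant, and the libraries of EXT1 overlap where those of CHPF separate.

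Of the linker genes, XYLT2, which adds the first xylose, stood at 15.33, 15.0 and 14.04 TPM in non-binding replicates 1 to 3 and at 25.9, 22.1 and 22.6 TPM in binding replicates 1 to 3. Every binding library lay above every non-binding one. The log2 change was 0.63 (SE 0.15; limma, Benjamini-Hochberg adjusted p = 0.0261; ENSG00000015532, chromosome 17, 50346092 to 50363138, hg38). Its paralog XYLT1 lay between 0.271 and 0.642 TPM and was not tested. B3GALT6, the galactosyltransferase for the second galactose, stood at 14.96, 13.4 and 19.4 TPM in non-binding libraries and 35.6, 27.2 and 23.2 TPM in the binding ones. The groups did not overlap, and the log2 change was 0.81 (SE 0.21; limma adjusted p = 0.0319). B3GAT3, which adds the glucuronic acid that completes the linker, stood at 14.5, 15.3 and 16.7 TPM against 30.7, 24.5 and 24.4 TPM. Again the groups were apart, with a log2 change of 0.73 (SE 0.16; limma adjusted p = 0.0222; chromosome 11, 62615296 to 62622175). B4GALT7, which adds the first galactose, averaged 9.20 ± 2.44 TPM in non-binding libraries and 15.1 ± 4.64 TPM in the binding ones (SD, n = 3 each). It did not pass (limma adjusted p = 0.0961), although its groups did not overlap. The summed TPM of the 5 linker genes was 53.3 to 57.6 in non-binding and 82.9 to 112.9 in binding libraries.

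In the heparan chain group, the subunits of the polymerase differed from each other. EXT1, the catalytic partner that extends the chain, stood at 105.7, 96.9 and 110.5 TPM in non-binding libraries and 104.6, 103.3 and 108.3 TPM in the binding ones. The groups overlapped closely, and the log2 change was 0.02 with a 95% interval of -0.26 to 0.29 (limma adjusted p = 0.925; chromosome 8, 117794490 to 118111853). Its partner EXT2 stood at 27.97, 21.6 and 28.4 TPM against 55.8, 41.5 and 37.5 TPM. All binding values of EXT2 were above all non-binding values, with a log2 change of 0.76 (SE 0.20; limma adjusted p = 0.0300; chromosome 11, 44095549 to 44245429). EXTL2, a transferase able to act on the linker and known to limit chain growth there, stood at 11.7, 9.47 and 11.5 TPM against 29.4, 19.7 and 21.7 TPM. Its groups were apart and its log2 change was 1.03 (SE 0.20; limma adjusted p = 0.0164; ENSG00000162694, chromosome 1, 100872372 to 100895998). EXTL3, which adds the first N-acetylglucosamine and so commits the chain to heparan, averaged 10.1 ± 1.59 TPM in non-binding libraries and 11.7 ± 1.11 TPM in the binding ones (SD, n = 3 each; limma adjusted p = 0.429). EXTL1 was listed at 0 in all 6 libraries.

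None of the 5 tested heparan modification genes passed, where 19.6% of all tested genes were called higher and 7.12% lower. With so few genes, this count does not set them apart from those shares. HS6ST1, the main 6-O-sulfotransferase here and the most abundant gene of the group, stood at 37.7, 42.6 and 40.5 TPM in non-binding libraries and 25.3, 37.5 and 40.3 TPM in the binding ones. Binding replicate 1 was the low one and the other libraries overlapped; the log2 change was -0.25 (95% interval -0.69 to 0.20; limma adjusted p = 0.344). A pseudogene copy, HS6ST1P1 on chromosome 1, was listed at 43.0 ± 2.25 TPM in non-binding libraries and 27.2 ± 3.44 TPM in the binding ones (SD, n = 3 each), and was lower by limma (adjusted p = 0.0243). How reads were divided between gene and copy is not known here, so both levels are uncertain. NDST1, which swaps acetyl for sulfate on glucosamine and opens the way for later sulfation, averaged 29.02 ± 2.05 and 39.2 ± 7.83 TPM (SD, n = 3 each). Its groups did not overlap, but it did not pass (limma adjusted p = 0.111). HS2ST1, the 2-O-sulfotransferase, averaged 20.7 ± 1.80 and 26.2 ± 4.61 TPM (limma adjusted p = 0.204). The epimerase GLCE averaged 14.5 ± 5.49 and 15.6 ± 3.31 TPM, and NDST2 1.83 ± 0.272 and 2.16 ± 0.271 TPM (SD, n = 3 each). The log2 changes of EXTL3, GLCE and NDST2 turned negative with quantile normalization as well as with the common median, and that of HS2ST1 turned to -0.01 with the common median. HS6ST2, a second 6-O-sulfotransferase, and HS3ST1 and HS3ST3A1, which add the rarer 3-O-sulfate, lay at or below 1.68 TPM in every library and were not tested.

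Among enzymes that edit heparan sulfate outside the cell, HPSE, the heparanase that cuts the chains, stood at 2.03, 2.01 and 1.496 TPM in non-binding libraries and 4.31, 2.90 and 2.31 TPM in the binding ones. The groups did not overlap, and the gene did not pass (limma adjusted p = 0.178). SULF2, which removes 6-O-sulfate, averaged 1.93 ± 1.29 and 2.16 ± 0.0751 TPM (SD, n = 3 each; limma adjusted p = 0.674). Exons of the more abundant NCOA3 overlap SULF2 on the opposite strand, and it is not known here whether counting used strand. SULF1 did not exceed 0.184 TPM.

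In the chondroitin chain group, CHPF was the most abundant gene. It encodes the polymerizing factor that works with chondroitin synthases, and stood at 80.1, 84.0 and 91.6 TPM in non-binding libraries and 161.4, 138.7 and 139.4 TPM in the binding ones. The groups were far apart, with a log2 change of 0.77 (SE 0.13; limma adjusted p = 0.0136; ENSG00000123989, chromosome 2, 219538947 to 219543787). TMEM198, whose exons overlap it on the opposite strand, averaged 1.19 and 3.90 TPM. CHSY1, the main chondroitin synthase here, stood at 22.9, 18.8 and 20.8 TPM against 35.7, 32.3 and 32.0 TPM. All 3 binding values lay above the others, and the log2 change was 0.66 (SE 0.15; limma adjusted p = 0.0232). CSGALNACT1, which adds the first N-acetylgalactosamine and so commits the chain to chondroitin, stood at 3.40, 4.86 and 2.82 TPM against 10.6, 6.61 and 6.47 TPM. It was the weakest of the 11 calls (log2 change 0.92, SE 0.27; limma adjusted p = 0.0421), and it was lost in 11 of 14 alternatives, the replicate block among them (adjusted p = 0.0508). Its more abundant paralog CSGALNACT2 averaged 48.3 ± 3.23 and 60.4 ± 7.40 TPM (SD, n = 3 each; limma adjusted p = 0.132). CHPF2 averaged 26.5 ± 3.61 and 29.3 ± 7.21 TPM with overlapping groups (limma adjusted p = 0.687), and CHSY3 lay between 0 and 1.89 TPM and was not tested. The change of CHPF2 turned to -0.20 with the common median, and SMARCD3 (5.21 and 9.34 TPM) overlaps it on the opposite strand.

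Of 8 tested genes that modify chondroitin and dermatan sulfate, 3 rose, where 19.6% of all tested genes were called higher. With the common median 1 of the 8 was called higher, beside 6.18% of all tested genes. Without non-binding replicate 2 or 3 the count was 0, where 280 and 58 of all tested genes were called higher. CHST11, a 4-O-sulfotransferase of chondroitin, stood at 3.45, 4.26 and 3.81 TPM in non-binding libraries and 10.2, 9.27 and 7.18 TPM in the binding ones. No values overlapped, and the log2 change was 1.02 (SE 0.21; limma adjusted p = 0.0199; ENSG00000171310, chromosome 12, 104455295 to 104762014). CHST3, a 6-O-sulfotransferase, stood at 8.48, 6.57 and 7.09 TPM against 21.2, 11.7 and 14.7 TPM. Binding replicate 1 was the highest, all 3 were above the non-binding libraries, and the log2 change was 0.98 (SE 0.24; limma adjusted p = 0.0269). CHST14, the 4-O-sulfotransferase of dermatan sulfate, stood at 4.70, 4.59 and 7.16 TPM against 11.5, 8.50 and 11.7 TPM, with a log2 change of 0.85 (SE 0.24; limma adjusted p = 0.0355). Its groups were apart. CHST7, a second 6-O-sulfotransferase, averaged 3.33 ± 2.11 and 6.64 ± 1.44 TPM (SD, n = 3 each); the groups overlapped and it did not pass (limma adjusted p = 0.0882). CHST15, which adds a further sulfate to 4-sulfated units, averaged 5.64 ± 1.13 and 8.51 ± 1.31 TPM (SD, n = 3 each; limma adjusted p = 0.104). CHST12 averaged 1.59 and 2.08 TPM, the epimerase DSE 6.36 and 7.28 TPM and the uronyl 2-sulfotransferase UST 5.06 and 5.42 TPM (limma adjusted p = 0.500, 0.507 and 0.742). DSE, UST and CHST12 changed sign with the common median. TSPYL1, at 43.1 and 74.4 TPM, overlaps DSE on the opposite strand, so the level of DSE is uncertain.

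Hyaluronan synthases were low. HAS2 stood at 0.954, 0.412 and 3.58 TPM in non-binding libraries and 1.54, 0.995 and 1.51 TPM in the binding ones, and HAS3 at 2.12, 1.80 and 4.67 TPM against 2.91, 3.60 and 1.41 TPM. Non-binding replicate 3 held the highest value of both, and the groups overlapped. Neither passed (limma adjusted p = 0.996 and 0.907), and the 95% intervals of the log2 changes were wide, from -1.05 to 1.05 and from -0.93 to 0.81. Exons of HAS3 overlap those of CHTF8, listed at 293 and 222 TPM, on the opposite strand, so the level of HAS3 is uncertain.

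**Figure D2:**
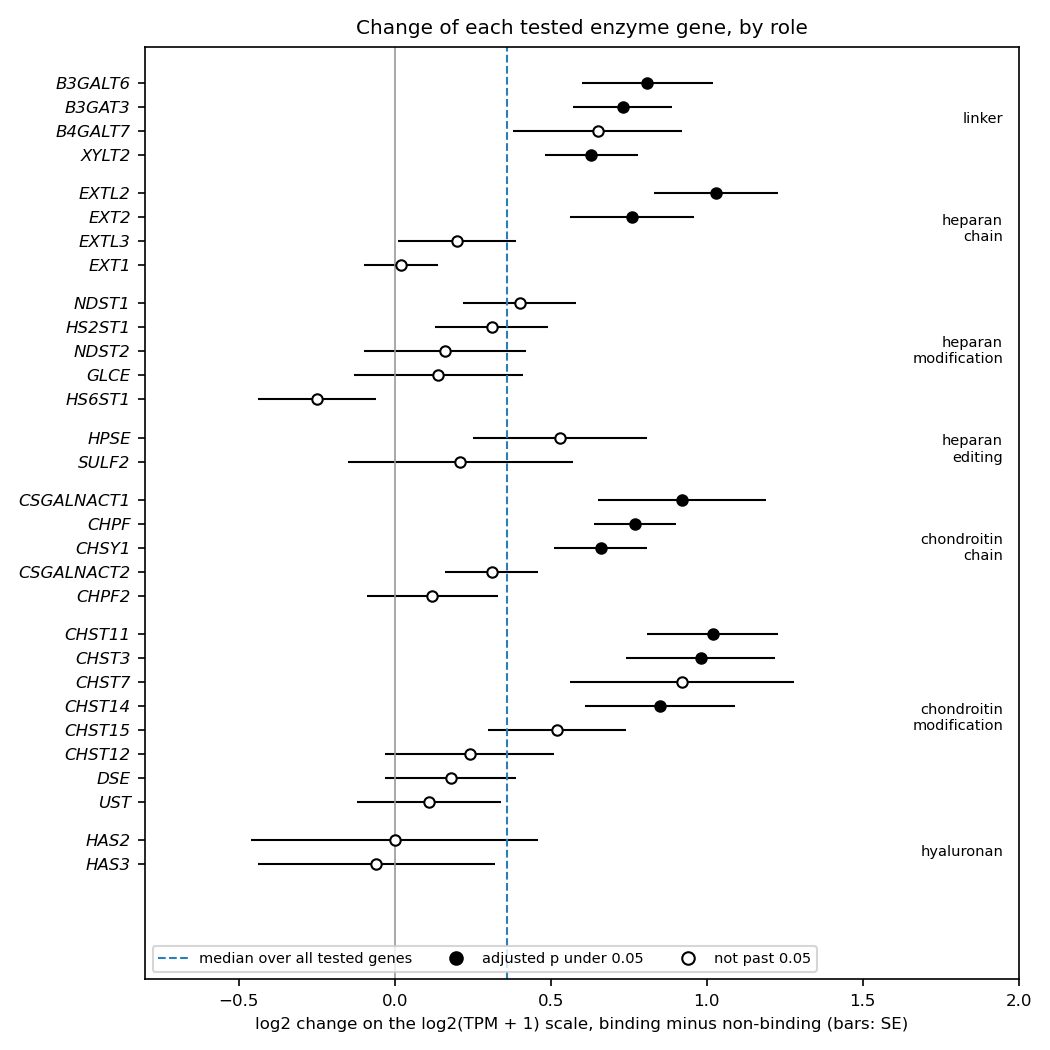
Points give the log2 change (binding minus non-binding, log2(TPM + 1) scale) and bars its standard error for each of the 30 tested genes, by role. Filled points passed an adjusted p of 0.05, and the dashed line marks the median over all tested genes at 0.36. All 5 heparan modification genes are open, with changes from -0.25 to 0.40, where 19.6% of all tested genes were called higher.

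Ratios of 2 levels within a library are not moved by a factor common to all its genes, and were used to set the branches against each other. They are descriptions with no test, and were chosen after the values were seen. CHPF relative to EXT1 was 0.757, 0.866 and 0.829 in non-binding replicates 1 to 3 and 1.54, 1.34 and 1.29 in binding replicates 1 to 3, so the order of these transcripts was turned around. EXT2 relative to EXT1 was 0.223 to 0.265 in non-binding and 0.347 to 0.533 in binding libraries. EXTL2 relative to EXTL3 was 0.996 to 1.16 in non-binding and 1.78 to 2.34 in binding libraries. At the commitment step the ratio of CSGALNACT1 plus CSGALNACT2 to EXTL3 was 4.71, 5.93 and 4.97 against 6.27, 5.72 and 5.47, and the groups overlapped.

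Summed over each branch, the chain genes of chondroitin relative to those of heparan stood at 1.19 to 1.29 in non-binding and 1.48 to 1.53 in binding libraries. This order rested on CHPF and EXT1: without these 2 genes the ratio was 2.00 to 2.33 in non-binding and 1.41 to 1.89 in binding libraries, the opposite order. Both heparan sums count EXTL2, known to limit chain growth, and neither ratio was computed without EXTL2. For sulfation, the 7 chondroitin sulfotransferases relative to the 7 of heparan gave 0.344, 0.346 and 0.344 in non-binding and 0.611, 0.505 and 0.563 in binding libraries. The non-binding libraries were nearly equal and all binding libraries lay above them. Relative to NDST1 plus HS2ST1 alone, without the uncertain HS6ST1, the values were 0.626 to 0.676 and 0.837 to 0.991, again with no overlap. The sulfotransferases of chondroitin summed to 32.3 ± 1.10 TPM in non-binding libraries and 58.0 ± 7.27 TPM in the binding ones, and those of heparan to 93.8 ± 3.27 and 103.4 ± 3.28 TPM (SD, n = 3 each).

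**Figure D3:**
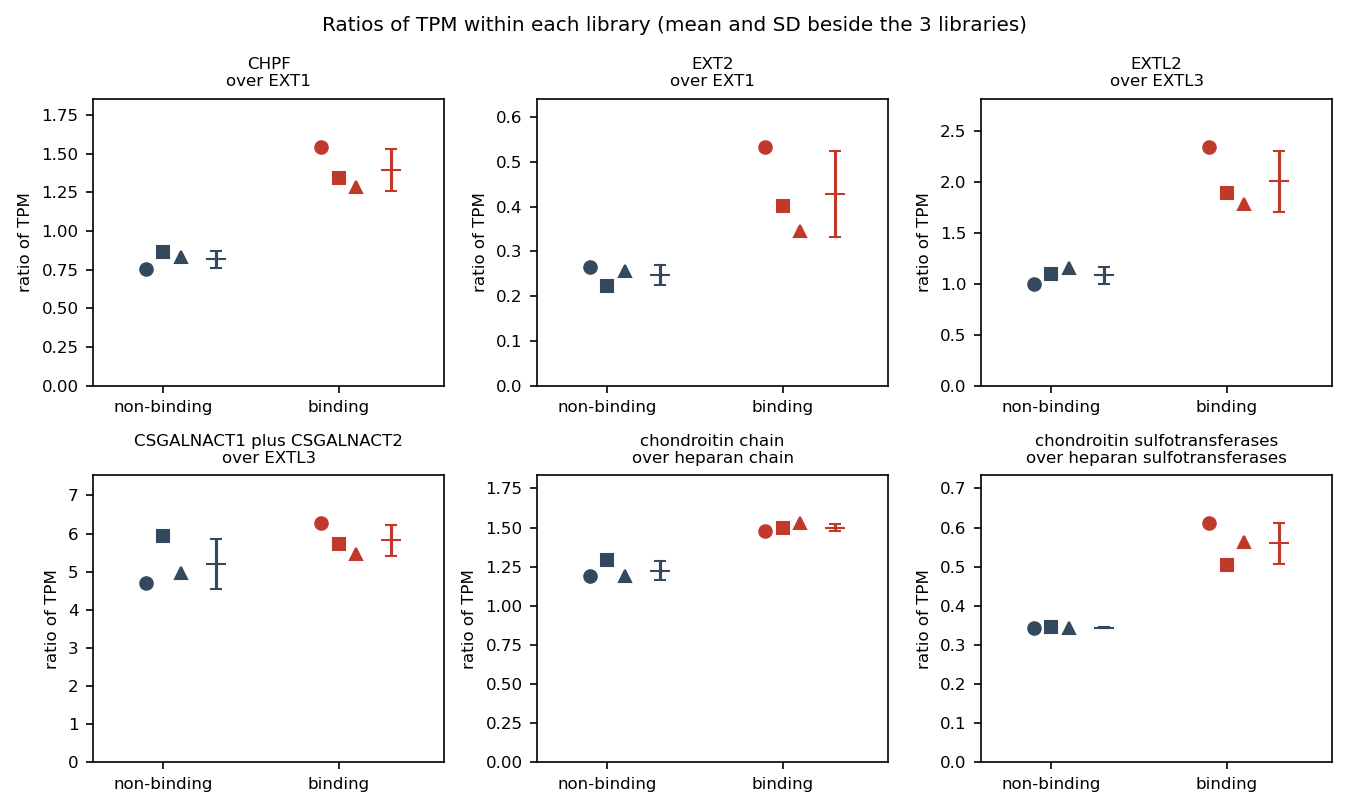
Each panel plots a ratio of TPM within each library (linear axis from 0), with the mean and SD beside the 3 libraries of each group. Non-binding and binding libraries are apart in 5 panels and overlap for CSGALNACT1 plus CSGALNACT2 over EXTL3.

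To show the start regions of genes that were called in different branches, the 300 bases from 250 before to 50 after the RefSeq start (build GRCh38.p14) are given for 1 gene per role, each 5′ to 3′ on the gene's strand. They are B3GAT3 (chr11:62621937-62622236, minus strand), EXTL2 (chr1:100894793-100895092, minus strand), CHPF (chr2:219543760-219544059, minus strand, the first of 2 listed windows) and CHST11 (chr12:104456698-104456997, plus strand). Capitals mark GGGCGG on either strand, the letters of a GC box bound by SP1-type factors, and TGACGTCA, the palindrome of the cyclic AMP response element.
B3GAT3: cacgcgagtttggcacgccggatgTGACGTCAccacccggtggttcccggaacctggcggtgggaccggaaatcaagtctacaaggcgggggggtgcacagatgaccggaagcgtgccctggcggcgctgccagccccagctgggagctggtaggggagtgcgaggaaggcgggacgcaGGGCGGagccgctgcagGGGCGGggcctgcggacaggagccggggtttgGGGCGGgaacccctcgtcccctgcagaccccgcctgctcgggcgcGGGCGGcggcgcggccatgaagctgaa
EXTL2: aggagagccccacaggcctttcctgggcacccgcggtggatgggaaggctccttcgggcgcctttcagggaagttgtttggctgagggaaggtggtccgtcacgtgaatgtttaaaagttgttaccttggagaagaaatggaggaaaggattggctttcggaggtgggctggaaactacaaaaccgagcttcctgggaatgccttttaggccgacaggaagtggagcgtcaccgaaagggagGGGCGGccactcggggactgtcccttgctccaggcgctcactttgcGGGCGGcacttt
CHPF: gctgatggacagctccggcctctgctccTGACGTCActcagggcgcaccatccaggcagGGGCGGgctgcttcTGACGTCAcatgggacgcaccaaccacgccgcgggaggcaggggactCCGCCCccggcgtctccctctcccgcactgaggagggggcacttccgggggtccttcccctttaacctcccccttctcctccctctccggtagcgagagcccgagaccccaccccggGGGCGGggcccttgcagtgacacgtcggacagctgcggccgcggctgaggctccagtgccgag
CHST11: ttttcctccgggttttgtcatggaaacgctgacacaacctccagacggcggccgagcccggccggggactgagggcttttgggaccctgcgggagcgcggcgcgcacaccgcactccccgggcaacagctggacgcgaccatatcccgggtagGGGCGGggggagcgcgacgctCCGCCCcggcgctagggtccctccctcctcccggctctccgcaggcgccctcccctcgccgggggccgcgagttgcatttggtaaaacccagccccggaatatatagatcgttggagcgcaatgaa

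GGGCGG stood in all 4 windows, 4 times in B3GAT3, 3 times in CHPF and 2 times each in EXTL2 and CHST11. RefSeq windows matched 32 of the 37 genes. GGGCGG was in 12 of 15 windows of the 10 called genes with a window (80.0%), in 21 of 25 windows of tested genes not called (84.0%) and in 45.0% of all 35116 windows of this length, or 66.3% of those of tested genes. TGACGTCA, searched for after it was seen in these windows, was once in B3GAT3 and 2 times in CHPF, in 2 of the 15 windows of called genes, in none of the 25 windows of tested genes not called and in 2.76% of windows of tested genes. TGACGTCA also stood once in a window of HS3ST3A1, a listed gene that was not tested. CACGTG was in 3 of 15 and 3 of 25 windows, beside 9.33% of windows of tested genes. The matches do not overlap in the 4 printed windows, and a match describes letters only.

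Another 85 pathway genes covered the supply of sulfate and sugar donors, further assembly enzymes, core proteins, and lysosomal and hyaluronan breakdown. Of these, 69 were tested. By limma with Benjamini-Hochberg adjustment 27 rose, 1 fell and 41 missed the threshold, beside 19.6% higher and 7.12% lower over all tested genes. With the common median 12 were called higher, where 6.18% of all tested genes were, and without non-binding replicate 3 only 1. Without non-binding replicate 2 or 3, 280 and 58 of all tested genes were called higher. Of 7 tested genes of sulfate supply 4 rose and none fell; 1 was called higher with the common median, and 0 without non-binding replicate 2 or 3. PAPSS2, which makes the sulfate donor PAPS, stood at 18.4, 12.7 and 14.9 TPM in non-binding libraries and 34.1, 28.6 and 30.1 TPM in the binding ones, with no overlap and a log2 change of 0.98 (SE 0.18; limma adjusted p = 0.0156). SLC35B2, which carries PAPS into the Golgi, averaged 41.8 ± 4.42 and 70.7 ± 13.1 TPM (SD, n = 3 each; limma adjusted p = 0.0241). BPNT2, listed under its older symbol IMPAD1, and BPNT1, the phosphatases that clear the spent donor, also rose, with log2 changes of 0.73 and 0.81. Of 16 tested genes of sugar nucleotide supply 3 were called higher, a share near the 19.6% of all tested genes, and 0 with the common median. Among the 3 were CANT1, a Golgi nucleotidase (log2 change 0.81), and UAP1, which makes UDP-N-acetylglucosamine (0.56). UGDH, which makes UDP-glucuronic acid, averaged 28.9 and 38.7 TPM and did not pass (limma adjusted p = 0.101). Among 4 further tested assembly genes none rose, and HS3ST6 fell from 5.30 ± 1.69 to 2.33 ± 0.381 TPM (SD, n = 3 each; limma adjusted p = 0.0491), which no fit with 1 library left out called.

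Of 22 tested core protein genes, which carry these chains, 10 rose and none fell, with a median log2 change of 0.60, beside 19.6% called higher and a median of 0.36 over all tested genes. Among protein-coding genes the median was 0.43. The count of core protein genes called higher was 6 with the common median, where 6.18% of all tested genes were called higher. It was 4 without non-binding replicate 2 and 0 without non-binding replicate 3. Without these 2 replicates in turn, 280 and 58 of all tested genes were called higher. SDC2, a syndecan, stood at 21.9, 22.3 and 23.7 TPM in non-binding libraries and 68.5, 49.6 and 52.6 TPM in the binding ones, with a log2 change of 1.28 (SE 0.16; limma adjusted p = 0.0092). AGRN, the heparan sulfate proteoglycan agrin, averaged 98.8 ± 0.512 and 212.8 ± 32.8 TPM (SD, n = 3 each; limma adjusted p = 0.0092). SDC3 and COL18A1 changed by 1.10 and 1.03 on the log2 scale. SDC1, by contrast, averaged 77.8 and 75.6 TPM with overlapping groups (limma adjusted p = 0.807). Of 5 tested genes of hyaluronan breakdown 4 rose and none fell; 1 was called higher with the common median, and 1 without any 1 non-binding library or binding replicate 2. CEMIP, which binds hyaluronan and promotes its breakdown, stood at 50.9, 62.4 and 50.9 TPM against 171.1, 149.7 and 150.2 TPM, with a log2 change of 1.51 (SE 0.14; limma adjusted p = 0.00308). No library of one group came near the other. HYAL2, HYAL3 and CEMIP2 (listed as TMEM2) changed by 0.76, 0.99 and 0.72 on the log2 scale, and HYAL1 averaged 2.36 and 0.952 TPM without passing (limma adjusted p = 0.0888).

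**Figure D4:**
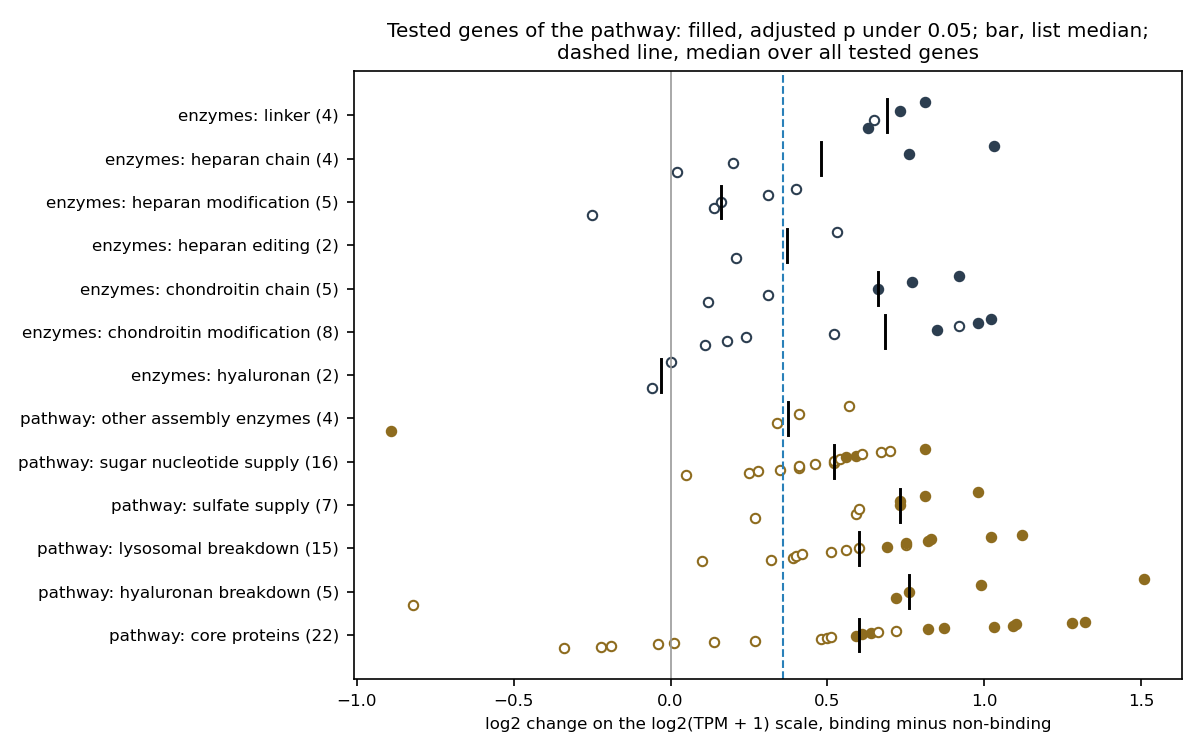
Each point is the log2 change (binding minus non-binding, log2(TPM + 1) scale) of a tested gene, by list, with the number tested in brackets. Filled points passed an adjusted p of 0.05, vertical bars are list medians and the dashed line is the median over all tested genes. Heparan modification and hyaluronan enzymes have the lowest medians among the enzyme groups, at 0.16 and -0.03.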

How the data were processed

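Per the labels' protocols, ribosomal RNA was depleted from total RNA of sorted MDA-MB-231 cells before random-primed library synthesis. The deposited values were taken to be TPM from the series text, and each of the 6 columns sums to 1000000. That sum alone cannot show scaling for length. Per the submitters' processing notes the build was hg38. Not given in the sources used here: aligner, quantification tool, annotation and strand setting. TPM depend on transcript length and on all other transcripts of a library, so a class that takes a larger share lowers the rest.

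The 15574 genes that reached 1 TPM in 3 or more libraries were tested on log2(TPM + 1). The test was limma 3.58.1 (R 4.3.3), with the variance prior following mean level and without covariates, and p-values were adjusted by Benjamini-Hochberg (threshold 0.05). This scale understates changes of low genes. The script was tested on simulated data. Coordinates are from GENCODE release 29. Alternatives were another pseudocount, 2 filters, 3 scalings, no trend, a replicate block and leaving out each library. Members and lists were chosen with earlier results of these data known. Every enzyme gene is accounted for, with values in each library for those past the threshold and the most abundant of each role; of other pathway genes, up to 4 with the smallest p per direction and list were named. Some genes that this rule names are not reported here. UGDH, SDC1, HYAL1, ARSB and HAS1 were named after their values were seen.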

Additional observations from a re-analysis of the deposited data

How the results depend on the processing

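The direction of all 11 called enzyme genes held under all 14 alternatives, and none of the 11 calls did. The number of enzyme genes called higher was 6 without a filter, 3 for the common median, 3 for quantile normalization and 0 to 8 when 1 library was left out; none was called lower under any alternative. Other pathway genes called higher numbered 17, 12 and 12 under the first 3 of these and 1 to 21 with 1 library left out. The 1 lower pathway gene was not called (0) without a filter, with the filter of 5 TPM, with rescaling without mitochondrial transcripts, without an intensity trend, with the replicate block and without any 1 library. Over all genes, 3047 were higher and 1109 lower. The counts were 1373 and 500 without a filter, 962 and 1890 for the common median, 1197 and 1246 for quantile normalization, 1992 and 567 without a trend, and 58 to 1975 and 6 to 888 with 1 library left out. The median log2 change of enzyme genes, 0.46, was 0.64 with the filter of 5 TPM, 0.15 for the common median and 0.16 for quantile normalization. That of heparan genes was 0.32 with a pseudocount of 0.1, -0.11 for the common median and -0.01 for quantile normalization. For these scalings that of chondroitin genes was 0.34 and 0.35 and that of linker genes 0.37 and 0.37. Rescaling without mitochondrial transcripts put that of chondroitin genes at 0.77. Under the common median and, second in brackets, quantile scaling the sign turned for EXT1 (-0.30, -0.09), EXTL3 (-0.12, -0.12), NDST2 (-0.16, -0.05), GLCE (-0.18, -0.19), SULF2 (-0.11, -0.01), CHPF2 (-0.20, -0.19), UST (-0.21, -0.17), DSE (-0.13, -0.12) and HAS2 (-0.32, -0.26). With the common median alone it turned for HS2ST1 (-0.01), CSGALNACT2 (-0.01) and CHST12 (-0.08), and HAS3 was 0.02 with rescaling without mitochondrial transcripts. With 1 library left out the log2 change ranged from -0.04 to 0.06 for EXT1, -0.07 to 0.41 for GLCE, -0.11 to 0.53 for SULF2, -0.04 to 0.32 for CHPF2, -0.08 to 0.20 for UST, -0.36 to 0.49 for HAS2 and -0.26 to 0.25 for HAS3. None of these genes was called in any setting. The common median moves the log2 change of every gene by the same amount. Relative to the median over all tested genes, the linker, heparan and chondroitin medians were therefore unmoved, at 0.33, -0.15 and 0.30 on either scale. For the other settings the cause of the changes was not tested. Same-numbered libraries of the groups had deviations that correlated at 0.0349, -0.0167 and 0.0284, so no shared deviation was seen. Such correlations cannot tell whether the numbers mark shared cultures or sorts, which is not known here. The replicate block kept 10 of the 11 calls, and with it B4GALT7 passed (adjusted p = 0.0457), giving 11 in all. Depth is unknown, so genes near 1 TPM carry an error that could not be set apart from the spread between libraries.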

Other observations

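Of 15 tested genes of lysosomal glycosaminoglycan breakdown, 6 rose in the FABP4-binding cells and none fell by limma with Benjamini-Hochberg adjustment, with a median log2 change of 0.60 beside 0.36 over all tested genes. Over all tested genes 19.6% were called higher, and among protein-coding genes the median log2 change was 0.43. With the common median 4 of the 15 were called higher, where 6.18% of all tested genes were. Leaving out non-binding replicate 1, 2 or 3 gave 4, 1 and 0 calls. Of all tested genes 1427, 280 and 58 were then called higher. GLB1, the lysosomal beta-galactosidase, stood at 17.6, 14.1 and 13.96 TPM in non-binding libraries and 37.98, 29.4 and 28.5 TPM in the binding ones, with a log2 change of 1.02 (SE 0.18; limma adjusted p = 0.0147). The groups did not overlap. GUSB, the beta-glucuronidase, and IDS, which removes 2-sulfate from iduronic acid, changed by 0.82 and 0.75 on the log2 scale. ARSB, which removes 4-sulfate from chondroitin and dermatan sulfate, averaged 2.16 and 2.45 TPM and did not pass (limma adjusted p = 0.788).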
